A study of Mus musculus with 12 samples.

Results

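The genes described here held one direction in every resected liver: their level in each of 9 livers sampled after partial hepatectomy lay above, or in each below, the level in all 3 sham-operated livers. The study removed 70% of the liver from wild-type C57/BL6J mice and sequenced poly(A) RNA of the whole remaining tissue in 3 libraries each at 3, 6 and 12 h, beside 3 libraries from sham-operated mice of the same strain and genotype. No hour is given for the sham livers, so time of day and resection cannot be told apart for any gene. No age or sex is given in the sources used here. One 6 h library, replicate 3, is tagged 7 h in its time field, and its title was followed. Separate animals are not stated for the replicates, so p-values measure only the spread between these samples, which may be technical.

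Of 11451 tested genes, 787 lay above sham in all 9 resected livers (6.87%) and 833 lay below it (7.27%), which is 1620 in all (14.1%). Over every gene with a count, 27369 in number, 911 lay above (3.33%) and 1102 below (4.03%). Genes were placed by their TMM-scaled CPM, and levels are printed as the deposited FPKM, which divides by gene length and library depth. These 1620 genes were chosen by the values that also give their difference from sham, so that difference is printed as a description. Tests among the 3 resected groups contrast their means only, though the sham libraries enter the estimate of spread, and they are printed with their p-values. Without sham replicate 1 the genes called among 3, 6 and 12 h numbered 6188 against 4332.

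After a partial hepatectomy the lobes that remain grow until liver mass is restored, and hepatocytes, which normally rest, re-enter the cell cycle. The first hours are known as the priming phase, in which cytokines such as IL-6 act through STAT3 and immediate early transcription factors are switched on while the liver goes on with its metabolic work. The acute phase response, in which hepatocytes secrete plasma proteins of inflammation, runs beside it. Growth then calls for new ribosomes and protein synthesis.

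The promoters of 3 genes are shown because they head the list of rises, each far above sham in all 9 resected livers. Each window holds 250 bases before and 50 after the RefSeq start on GRCm38.p6, and those starts lie 513, 43 and 7 bases from the gene start that the deposited table gives for Lcn2, Saa2 and Mt1. Capitals mark matches to a C/EBP motif (TTGCNNAA) in Lcn2 and Saa2 and to TGCGCNC, a form of the metal response element core, in Mt1. Other forms of that core were not searched, so unmarked bases may hold them.
Lcn2 promoter, chr2:32387690-32387989, minus strand: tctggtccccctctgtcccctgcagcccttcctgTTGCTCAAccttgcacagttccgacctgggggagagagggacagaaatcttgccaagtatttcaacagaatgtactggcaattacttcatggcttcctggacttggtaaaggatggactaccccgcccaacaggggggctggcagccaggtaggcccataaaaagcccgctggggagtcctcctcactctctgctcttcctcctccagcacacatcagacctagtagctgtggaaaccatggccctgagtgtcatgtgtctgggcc
Saa2 promoter, chr7:46751583-46751882, plus strand: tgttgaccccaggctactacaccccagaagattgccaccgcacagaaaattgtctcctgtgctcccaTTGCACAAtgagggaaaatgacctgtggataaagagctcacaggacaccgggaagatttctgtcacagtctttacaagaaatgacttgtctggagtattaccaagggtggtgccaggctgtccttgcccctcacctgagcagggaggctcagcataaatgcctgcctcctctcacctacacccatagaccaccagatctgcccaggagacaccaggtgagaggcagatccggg
Mt1 promoter, chr8:94178839-94179138, plus strand: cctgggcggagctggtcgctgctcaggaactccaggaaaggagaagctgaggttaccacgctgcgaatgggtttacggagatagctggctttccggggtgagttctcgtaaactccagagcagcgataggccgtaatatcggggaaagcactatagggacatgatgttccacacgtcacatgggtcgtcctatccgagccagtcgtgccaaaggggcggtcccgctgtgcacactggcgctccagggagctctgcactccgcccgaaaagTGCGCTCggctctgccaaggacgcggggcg
The Lcn2 match spans bases -216 to -209 from the start, the Saa2 match -183 to -176 and the Mt1 match 20 to 26. Both strands were searched for these and for STAT (TTCCNGGAA), NF-kB (GGANTTTCC), AP-1 (TGANTCA), E-box (CACGTG), D-box (TTANGTAA), HNF1 (GTTAATNAT), cAMP response element (TGACGTCA) and TATA box (TATAAA) motifs, whose matches may overlap. None of these 8 others matched in the 3 windows. Among all 32851 RefSeq promoter windows of this length, 10.8% held the C/EBP motif and 15.4% the TGCGCNC form of the metal response core. In the 10375 windows of tested genes these shares were 9.36% and 26.2%, so neither match is rare. RefSeq windows were found for 593 of the 787 rises (75.3%) and 624 of the 833 falls (74.9%), beside 71% of tested genes. Genes without a window could not be searched, so motif shares of rises and falls are not compared here. The 3 printed matches are not read as a trait of the rises.

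Library totals lay between 15573405 and 17199639 counts. Sham replicates 1, 2 and 3 had lowest correlations of 0.950, 0.956 and 0.950 within their group, against 0.978 or more within the resected groups. The first sham library was unlike its partners in its mitochondrially encoded genes, which held 11.9% of its counts against 6.26% and 5.52%. Its place decides many memberships: without it 1544 genes lay above the 2 sham livers left and 1626 below, among them all of the 787 and 833. Over all genes, the edgeR quasi-likelihood test with Benjamini-Hochberg adjustment called 3683 between the resected and sham livers (32.2%), 1634 higher (14.3%) and 2049 lower (17.9%). Higher genes made up 44.4% of these calls with TMM scaling and 25.2% with library totals alone, 1055 higher and 3124 lower. That scaling moved the median of all genes from -0.02 to -0.19 on the log2 scale, and placed 492 genes above and 1162 below.

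**Figure D1:**
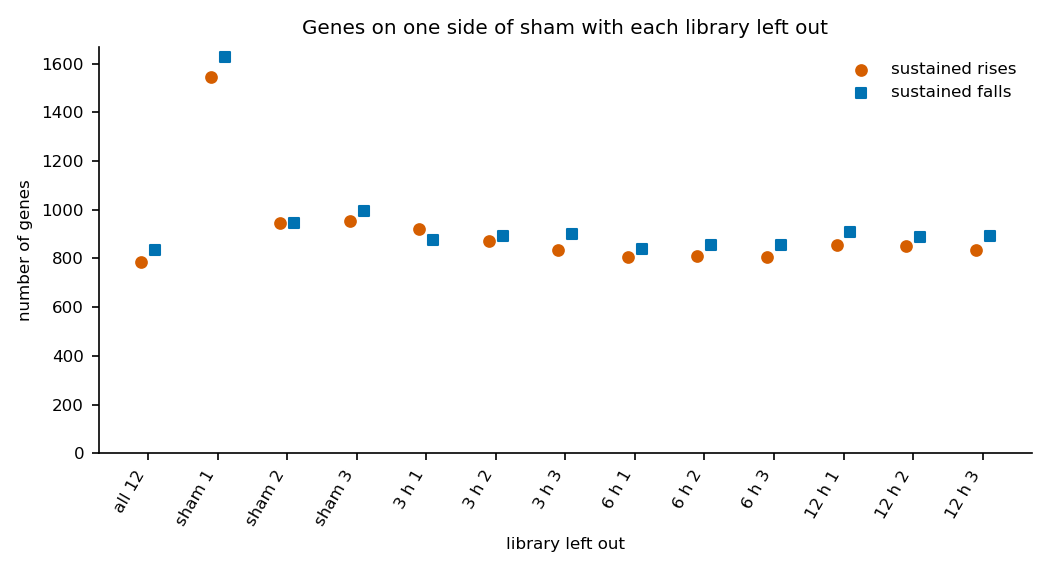
Number of genes (vertical axis) with all resected livers on one side of all sham livers, using all 12 libraries and with each library left out in turn (horizontal axis). Circles are rises and squares are falls. Leaving out sham replicate 1 gives 1544 rises and 1626 falls, and the other 11 omissions give 804 to 954 rises and 837 to 996 falls.

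The rises were led by a few very large increases and the falls were more even in size. The median log2 difference was 0.90 over the rises (quartiles 0.59 and 1.59) and -0.96 over the falls (quartiles -1.44 and -0.65), beside -0.02 over all tested genes. Of the rises, 340 were 2-fold or more, 141 4-fold or more and 68 8-fold or more. Of the falls, 395 were 2-fold or more, 96 4-fold or more and 21 8-fold or more. Called by edgeR were 764 of the rises and 808 of the falls, shares that the choice of members sets. Seen the other way, 46.8% of the 1634 genes called higher and 39.4% of the 2049 called lower were one-sided. Among the 870 called higher that were not, 240 would have been without sham replicate 1, 92 without sham replicate 2 and 99 without sham replicate 3. Of the 787 rises, 137 stayed under 1 FPKM in all 3 sham livers, so they passed the filter on low values through the resected livers alone. Likewise 50 of the 833 falls stayed under 1 FPKM in all 9 resected livers and passed through sham. Noncoding genes and pseudogenes made up 132 of the falls and 55 of the rises, against 1589 of the 11451 tested.

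In every resected liver the rises took a larger share of the library than in sham. They held 7.81%, 9.20% and 9.30% of counts in the sham livers, 17.2%, 19.2% and 18.1% at 3 h, 26.02%, 27.1% and 25.6% at 6 h and 22.7%, 21.1% and 23.5% at 12 h. The falls held 8.93%, 7.999% and 7.99% in sham, 4.75%, 4.51% and 4.56% at 3 h, 3.23%, 3.13% and 3.06% at 6 h and 4.08%, 4.15% and 3.801% at 12 h. Both shares were farthest from sham at 6 h in all 3 libraries. This separation follows from how the genes were chosen. In whole tissue, fewer cells of a type and less RNA per cell cannot be told apart.

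**Figure D2:**
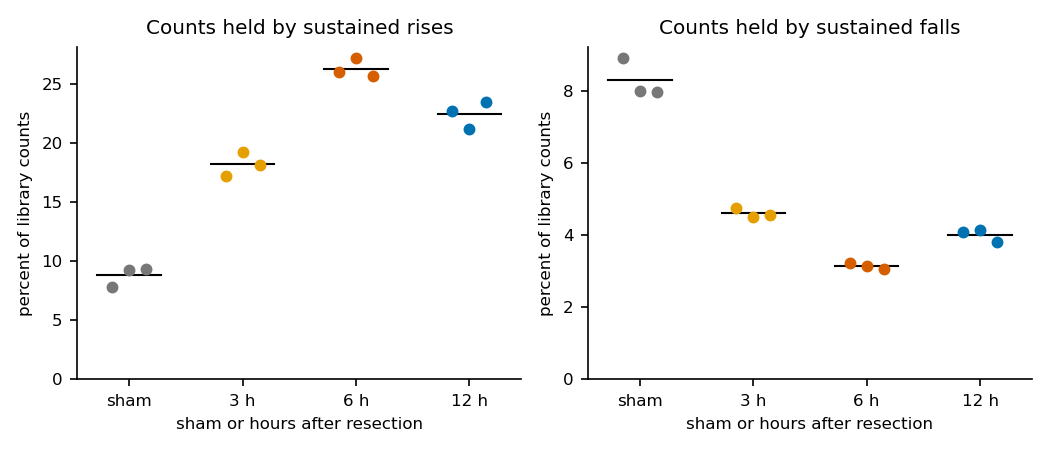
Percent of each library's counts (vertical axis) held by the 787 sustained rises (left) and the 833 sustained falls (right) in sham livers and at 3, 6 and 12 h (horizontal axis). Points are libraries and lines are means of 3. The 6 h libraries hold between 25.6% and 27.1% in rises against at most 9.30% in sham, and at most 3.23% in falls against at least 7.99%.

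Sustained did not mean constant. Among the resected groups, the edgeR F-test called 345 of the 787 rises (43.8%) and 391 of the 833 falls (46.9%) as differing between 3, 6 and 12 h, against 37.8% of all tested genes. Of the rises, 93 were higher and 132 lower at 12 h than at 3 h, and of the falls 100 were higher and 147 lower. Over all genes 12 h differed from 3 h for 36.0%, with 17.8% higher and 18.2% lower. The group mean lay farthest from sham at 6 h for 513 rises (65.2%) and 494 falls (59.3%), where 37.7% of all tested genes did so, a count that uses the same sham livers as the choice of members. It was farthest at 3 h for 129 rises and 114 falls and at 12 h for 145 and 225. Each time taken alone against the shared sham livers called 560, 739 and 610 of the rises at 3, 6 and 12 h, and 574, 760 and 633 of the falls. All 3 calls were made for 454 rises and 433 falls. Over all genes, 476 were called higher at each time (4.16%) and 456 lower (3.98%).

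Acute phase proteins were the most complete group. Of 35 tested members 33 rose and none fell, 27 of them one-sided, with a median log2 difference of 2.32. For 5 of the 35, all sham values were under 1 FPKM, so they passed the filter through the resected livers alone. In this and later lists, rose and fell mean called by edgeR, beside 14.3% and 17.9% of all tested genes. One-sided counts stand beside 6.87% above and 7.27% below. Lcn2 (ENSMUSG00000026822, chr2:32384633-32388252) encodes lipocalin 2, which binds bacterial siderophores and so withholds iron. It stood at 0.426, 0.8198 and 0.971 FPKM in sham, 187, 280.03 and 424 at 3 h, 619, 957 and 1290.00 at 6 h and 638, 480.2 and 721 at 12 h. No sham liver came near any resected liver, and levels differed among the times (edgeR adjusted p = 0.00402). The log2 difference from sham was 9.52 ± 0.46 (SE), with 8.59, 10.29 and 9.67 at 3, 6 and 12 h. Saa2 (ENSMUSG00000057465, chr7:46751790-46754313) encodes serum amyloid A, an apolipoprotein of inflammation. It was at 1.22, 4.23 and 2.54 FPKM in sham, 1092, 751 and 1162 at 3 h, 2477, 1889 and 1789 at 6 h and 1856, 2131 and 1647 at 12 h. The 3 h livers were lowest of the resected groups, and the difference from sham was 9.17 ± 0.43. Its near copy Saa1 had 6.89 ± 0.43, and reads of the pair may be shared.

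Metal-binding metallothioneins rose by similar amounts and had begun to return. Mt1 (ENSMUSG00000031765, chr8:94179082-94180327) was at 3.401, 15.02 and 16.4 FPKM in sham, 2771, 2769.9 and 3758 at 3 h, 4989, 6516 and 5286 at 6 h and 1011, 923 and 912 at 12 h. Levels were highest at 6 h and lowest of the resected groups at 12 h. The difference from sham was 7.74 ± 0.48, and that of 12 h from 3 h was -1.68 ± 0.38 (SE, edgeR adjusted p = 0.00463). The neighbouring Mt2 had 0, 0 and 3 counts in sham, too few for a fold, and 0, 0 and 0.265 FPKM in sham, 63.3, 65.3 and 46.7 at 3 h, 52.1, 57.3 and 28.8 at 6 h and 2.58, 3.07 and 1.905 at 12 h. The difference of 12 h from 3 h was -4.500 ± 0.35 (SE, edgeR adjusted p = 4.74e-06), and the 12 h livers were still above sham. The protease inhibitors A2m (6.38 ± 0.97) and Serpina3n (4.52 ± 0.18) followed. A2m was at 0.0419, 0.0536 and 0.0444 FPKM in sham, 0.632, 1.52 and 1.497 at 3 h, 4.58, 5.29 and 31.4 at 6 h and 1.43, 3.07 and 7.51 at 12 h, with 6 h replicate 3 highest. Serpina3n was at 147, 126 and 129 FPKM in sham, 1796, 2059 and 2378 at 3 h, 4269, 5375 and 5734 at 6 h and 3006, 2353 and 3246 at 12 h, with the smallest SE of these. Syt12, a synaptotagmin, differed by 4.63 ± 0.29, with 4.70, 5.45 and 3.73 at 3, 6 and 12 h.

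**Figure D3:**
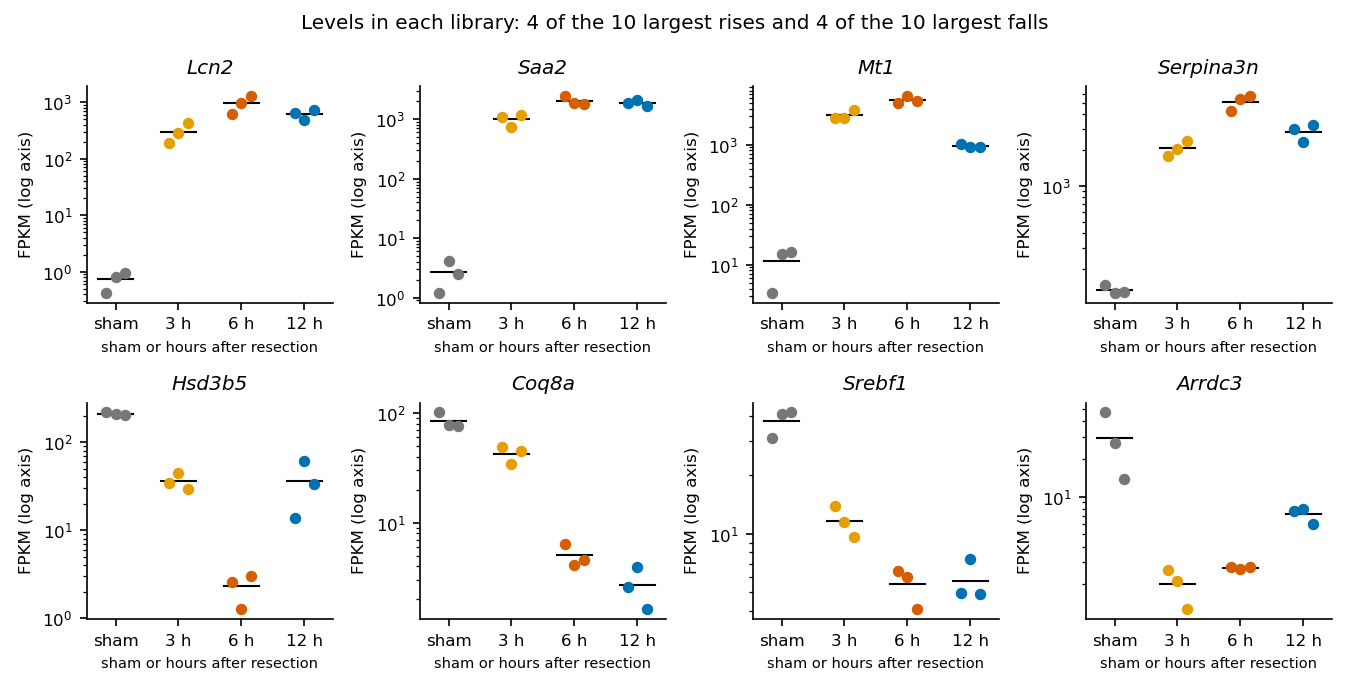
Level of 8 genes in FPKM (vertical log axes, each with its own range) in sham livers and at 3, 6 and 12 h (horizontal axis). Points are libraries and lines are means of 3. In Lcn2, Saa2, Mt1 and Serpina3n all 9 resected livers lie above all sham livers, and in Hsd3b5, Coq8a, Srebf1 and Arrdc3 all 9 lie below.

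By FPKM, abundant plasma proteins gained most. The haptoglobin gene Hp, whose product binds free haemoglobin, was at 874, 1373 and 1415 FPKM in sham, 3946, 5196 and 4773 at 3 h, 7994, 10001 and 7646 at 6 h and 6563, 5426 and 6115 at 12 h. Hemopexin, Hpx, which binds free haem, was at 1322, 2306 and 2233 FPKM in sham, 5159, 5567 and 5499 at 3 h, 8489, 9848 and 9475 at 6 h and 6707, 6605 and 6909 at 12 h. Both were highest at 6 h in each library, with log2 differences of 2.32 ± 0.18 and 1.81 ± 0.17. All 3 fibrinogen chains, which form the clot, were one-sided. The alpha chain Fga was at 1471, 1608 and 1525 FPKM in sham, 4089.5, 4969.7 and 4808 at 3 h, 8224, 9323 and 9187 at 6 h and 5322, 5716 and 7241 at 12 h. The gamma chain Fgg differed by 1.85 ± 0.13, the alpha chain by 2.01 ± 0.13 and the beta chain Fgb by 1.78 ± 0.12, and all 3 differed among the times (edgeR adjusted p = 0.000178, 0.000689 and 0.000503). Serpina3k, a serpin already abundant in sham at 5573 to 6382 FPKM, differed by 0.68 ± 0.11. Orm2, an orosomucoid that carries drugs and lipids in plasma, was at 4.56, 7.56 and 5.43 FPKM in sham, 42.7, 39.9 and 59.3 at 3 h, 126, 154 and 96.3 at 6 h and 293, 206 and 214 at 12 h. It went on rising, and the difference of 12 h from 3 h was 2.36 ± 0.23 (SE, edgeR adjusted p = 2.1e-05). Hepatocyte markers as a list did not follow: of 12, 2 rose, 2 fell and none was one-sided (5 fell without sham replicate 1, 1 without sham replicate 2 or 3). Albumin, Alb, was not called at -0.16 ± 0.11 (edgeR adjusted p = 0.282), though with library totals it did, at -0.33.

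Several receptors and feedback genes of cytokine signalling stayed above sham to 12 h. Of 26 tested, 13 rose and 4 fell (2 fell without sham replicate 1), and 9 were one-sided above and 2 below, with a median of 0.59. The list's medians at 3, 6 and 12 h were 0.72, 0.77 and 0.20, nearest to sham at 12 h. Socs3, the feedback inhibitor of STAT3 signalling, was at 0.692, 3.53 and 2.05 FPKM in sham, 37.03, 32.5 and 31.2 at 3 h, 58.7, 43.1 and 38.6 at 6 h and 17.2, 15.2 and 14.9 at 12 h. The sham livers differed among themselves and none came near a resected liver. The difference was 3.76 ± 0.37, and 4.37 without sham replicate 2. Il1r1, the signalling receptor for interleukin 1, was at 7.25, 4.51 and 5.22 FPKM in sham, 72.97, 102 and 105 at 3 h, 93.9, 103 and 150.5 at 6 h and 12.7, 16.8 and 26.3 at 12 h. The 12 h livers were nearest to sham, with a difference from 3 h of -2.30 ± 0.28 (SE, edgeR adjusted p = 7.57e-05). Stat3 itself, the transcription factor that IL-6 activates, was at 9.68, 10.5 and 10.3 FPKM in sham, 31.1, 29.7 and 28.98 at 3 h, 32.8, 32.8 and 33.3 at 6 h and 13.8, 14.3 and 15.98 at 12 h. Its 3 and 6 h libraries were close to a common level and its 12 h libraries nearer sham, with a difference of 12 h from 3 h of -0.997 ± 0.12 (SE, edgeR adjusted p = 5.49e-05). Tnfrsf12a, the receptor for the cytokine TWEAK, differed by 2.31 ± 0.36. One-sided below were Lifr, a receptor of leukaemia inhibitory factor, and Tyk2, a Janus kinase.

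Among 22 NF-kB genes and chemokines, 10 rose, 2 fell and 6 were one-sided above, with a median of 0.42. By time the medians were 0.747, 0.825 and -0.184 at 3, 6 and 12 h, so the list as a whole was not above sham at 12 h. The median at all times together was 0.10 without sham replicate 1, where 1 fell, 0.66 without sham replicate 3 and 0.24 with library totals. Cxcl1, a neutrophil attractant, was at 5.99, 2.06 and 1.14 FPKM in sham, 186, 132 and 144 at 3 h, 143, 189.7 and 296 at 6 h and 17.4, 44.6 and 73.6 at 12 h. Sham replicate 1 was the highest of its group and the 12 h livers were lowest of the resected ones. The difference was 5.19 ± 0.59, and 6.11 without sham replicate 1. Ccl6, a macrophage chemokine, was at 1.48, 1.59 and 1.54 FPKM in sham, 12.3, 15.3 and 8.88 at 3 h, 13.9, 11.8 and 13.9 at 6 h and 13.4, 8.39 and 13.1 at 12 h. It kept nearly the same distance at each time, 2.95, 3.07 and 2.91. Alpk1 and Tifa, a kinase and the adaptor it phosphorylates in a pathway to NF-kB, lie in one run of neighbouring rises (chr3:127670310-127896324) and were chosen after their values were seen. Tifa was at 5.57, 3.31 and 2.97 FPKM in sham, 32.2, 26.03 and 42.7 at 3 h, 71.95, 75.9 and 103 at 6 h and 12.4, 17.6 and 27.8 at 12 h. Alpk1 was at 0.317, 0.274 and 0.174 FPKM in sham, 1.46, 1.35 and 2.06 at 3 h, 4.05, 5.22 and 7.75 at 6 h and 1.86, 1.96 and 4.01 at 12 h. Both were highest at 6 h, with differences of 3.23 ± 0.30 and 3.47 ± 0.34.

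Immediate early genes, which respond to a stimulus before new protein is made and here include genes that encode no transcription factor, were sustained at about the share of all genes. Of 32 tested, 15 rose and 4 fell, and 2 were one-sided above, Gadd45g and Myc, and 1 below, beside 6.87% and 7.27% of all tested genes, with a median of 0.73 at all times together and 1.30, 0.95 and -0.20 at 3, 6 and 12 h. Without sham replicate 2 the one-sided count was 5, without 12 h replicate 3 it was 4, and the count that fell was 7 and 1 without sham replicates 1 and 3. The median was 0.47, and 3 were one-sided below, without sham replicate 1. Gadd45g, a stress-induced regulator of growth arrest, was at 1.05, 13.4 and 23.5 FPKM in sham, 200.4, 220.03 and 233 at 3 h, 220.4, 190.2 and 191 at 6 h and 25.5, 26.4 and 26.8 at 12 h. Its 12 h livers lay just above the highest sham liver. The antiproliferative Btg1 was one-sided below, at 10.2, 8.98 and 9.93 FPKM in sham, 7.83, 8.37 and 6.43 at 3 h, 5.35, 5.75 and 5.47 at 6 h and 4.27, 3.68 and 3.099 at 12 h. It went on falling, with a difference of 12 h from 3 h of -1.005 ± 0.15 (SE, edgeR adjusted p = 0.000327).

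Of 644 tested transcription factors, as the deposited table marks them, 23 were sustained rises (3.57%) and 48 sustained falls (7.45%), against 6.87% and 7.27% of all genes. The growth regulator Myc (ENSMUSG00000022346, chr15:61985391-61990374) was at 0.412, 1.35 and 1.47 FPKM in sham, 3.79, 4.87 and 4.77 at 3 h, 3.08, 2.56 and 2.195 at 6 h and 1.89, 4.88 and 3.54 at 12 h. The lowest resected value was that of a 12 h liver, and no difference among the times was called (edgeR adjusted p = 0.264). Its log2 difference was 1.63 ± 0.35. MYC binds DNA as a dimer with MAX, and MXI1, MXD4 and MNT compete for MAX and repress the same sites. The family list was chosen after its values were seen. Of 37 tested basic helix-loop-helix genes, 3 were one-sided above, Myc, Mlx (0.69 ± 0.11) and Max (0.42 ± 0.12). One-sided below were 6: Mxi1 (-0.48 ± 0.12), Mxd4 (-0.78 ± 0.11), Mnt (-0.99 ± 0.23), Mlxipl (-1.67 ± 0.18), Srebf1 (-2.43 ± 0.16) and Tcf24 (-1.45 ± 0.37). Max was at 4.22, 3.85 and 4.003 FPKM in sham, 4.34, 5.1997 and 5.73 at 3 h, 6.09, 7.58 and 6.55 at 6 h and 4.99, 4.38 and 5.01 at 12 h, a narrow margin over sham. It was no longer called without sham replicate 2 (0.39) or sham replicate 3 (0.42), with library totals (0.25) or in a model of 2 arms (0.43). Mnt lost its call without sham replicate 2 (-0.70) and Tcf24 without sham replicate 1 (-1.03), without that library and 6 h replicate 3 (-0.92) and in a model of 2 arms (-1.33). Mxd4 was at 6.08, 7.998 and 7.88 FPKM in sham, 4.398, 4.47 and 4.57 at 3 h, 4.31, 5.52 and 4.53 at 6 h and 4.04, 3.596 and 3.84 at 12 h, clear of sham in every resected liver.

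Of the other factors, Arid5a, an RNA-binding stabiliser of inflammatory transcripts, had the largest rise. It was at 0.0516, 0.103 and 0.162 FPKM in sham, 1.903, 2.301 and 2.43 at 3 h, 2.36, 1.97 and 1.22 at 6 h and 0.198, 0.371 and 0.205 at 12 h, and its 12 h livers came close to sham. Cers6, a ceramide synthase that carries a homeobox domain, differed by 2.40 ± 0.22. Litaf, a factor induced by lipopolysaccharide, differed by 1.63 ± 0.15, and Xbp1, the effector of the unfolded protein response, by 1.13 ± 0.11. At the low end were the nuclear receptor Nr1h5 (-3.05 ± 0.40), Rfx4 (-2.54 ± 0.43), Srebf1 and the zinc finger gene Zfp467 (-2.04 ± 0.21). Foxo3, a forkhead factor restrained by insulin signalling, was at 6.79, 7.89 and 9.09 FPKM in sham, 2.29, 1.76 and 2.52 at 3 h, 1.67, 2.07 and 2.33 at 6 h and 3.45, 3.77 and 3.28 at 12 h. The highest resected liver lay well below the lowest sham liver, and the difference was -1.69 ± 0.13. Of 39 hepatocyte and metabolic transcription factors 2 rose and 14 fell, 4 of them one-sided, among them Foxo3, Ppargc1b and Thra, with a median of -0.36. Without sham replicate 1, 6 rose and 4 were one-sided above and 9 below, without sham replicate 2, 9 fell, and without sham replicate 3, 4 rose. Hnf4a, the central factor of hepatocyte identity, rose on average (0.58 ± 0.13, edgeR adjusted p = 0.00331, not called in a model of 2 arms at 0.67) but was not sustained, with 1.07, 0.83 and -0.18 at 3, 6 and 12 h. Cebpa, a factor of quiescent hepatocytes, fell (-1.16 ± 0.21, edgeR adjusted p = 0.000888) and missed one-sidedness through sham replicate 1, at 74.5, 186 and 169 FPKM in sham, 65.7, 52.2 and 68.8 at 3 h, 68.5, 71.8 and 49.7 at 6 h and 63.8, 78.8 and 67.6 at 12 h.

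Cell cycle genes are read beside the 6.87% of all tested genes that were one-sided above. Ccnd1, the cyclin D1 that opens G1, was at 1.6995, 4.32 and 3.302 FPKM in sham, 6.27, 8.03 and 6.34 at 3 h, 12.5, 6.34 and 7.94 at 6 h and 30.3, 26.3 and 21.98 at 12 h. All resected livers exceeded sham and the 12 h livers exceeded the rest, with a difference from 3 h of 1.96 ± 0.30 (SE, edgeR adjusted p = 0.000419). With Ccne1 it made 2 one-sided members among 17 tested G1 cyclins and E2F genes, of which 5 rose and 3 fell (3 rose without sham replicate 2 or with library totals), with a median of 0.19 (0.03 with library totals). Of 28 tested DNA replication genes 7 rose, 2 fell and 1, the ribonucleotide reductase subunit Rrm2, was one-sided, with medians of -0.12, -0.30 and 1.5 at 3, 6 and 12 h and 0.35 together. One-sided were 3 without sham replicate 1 and 0 with library totals, where 4 rose, 4 fell and the median was 0.18. All sham values were under 1 FPKM for 5 of the 17 and 7 of the 28 genes. Those passed the filter through the resected livers alone. Uhrf1, which couples DNA methylation to replication, was at 0.0553, 0.164 and 0.06105 FPKM in sham, 0.1303, 0.0928 and 0.0981 at 3 h, 0.0495, 0.0305 and 0.1902 at 6 h and 1.66, 8.499 and 3.04 at 12 h. Only the 12 h livers were high, and its average of 1.85 ± 0.68 did not pass (edgeR adjusted p = 0.0524), although it did in 8 of 25 alternatives, among them DESeq2, the replicate block and 4 that leave out a library, with a log2 difference between 0.70 and 4.003 over all 25. Tk1, the cytosolic thymidine kinase of S phase, went the other way at 3.65, 4.63 and 5.15 FPKM in sham, 2.55, 1.96 and 2.61 at 3 h, 0.919, 0.762 and 1.03 at 6 h and 1.103, 2.09 and 0.679 at 12 h (chosen after its values were seen). Cdkn1a, which encodes the cell cycle inhibitor p21, rose on average (4.18 ± 0.30, edgeR adjusted p = 6.28e-07) but was at 0.497, 0.484 and 1.2001 FPKM in sham, 48.1, 67.01 and 69.8 at 3 h, 55.9, 54.02 and 53.6 at 6 h and 0.883, 0.832 and 0.5201 at 12 h. Its 12 h livers were within the sham range, so it is no member. Igfbp1, a secreted IGF-binding protein, likewise changed sides, with 2.96, 3.54 and -1.88 at 3, 6 and 12 h. Hgf, the hepatocyte growth factor, rose (0.98 ± 0.25, edgeR adjusted p = 0.0083), and was at 1.02, 0.703 and 0.441 FPKM in sham, 1.03, 1.82 and 1.39 at 3 h, 0.938, 1.02 and 1.43 at 6 h and 2.06, 1.73 and 1.96 at 12 h. Its lowest 6 h livers overlapped the highest sham liver.

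Protein synthesis genes moved little each but together. Of 62 tested ribosome biogenesis genes 43 rose and none fell, and 25 were one-sided above, with a median of 0.52 and 0.51, 0.74 and 0.51 at 3, 6 and 12 h. Nop58, a core protein of snoRNA particles, was at 2.18, 1.48 and 1.23 FPKM in sham, 3.67, 4.76 and 5.22 at 3 h, 5.97, 6.55 and 7.66 at 6 h and 4.16, 4.54 and 4.88 at 12 h, highest at 6 h. Gnl2, a GTPase of large subunit assembly, differed by 1.21 ± 0.12 and the nucleolar phosphoprotein Nolc1 by 1.16 ± 0.14. With library totals the median was 0.35, 30 rose and 17 were one-sided. Without sham replicate 1, 39 rose, 1 fell and 32 were one-sided above. Of 50 translation factors and tRNA synthetases 28 rose and 1 fell, and 17 were one-sided above, with a median of 0.36. That count was 28 without sham replicate 1 and 6 with library totals, where 15 rose and the median was 0.20. Eif6, which keeps ribosomal subunits apart, was at 6.12, 11.7 and 11.9 FPKM in sham, 20.8, 17.9 and 20.05 at 3 h, 29.3, 32.4 and 23.9 at 6 h and 17.4, 18.4 and 19.2 at 12 h. Eif2b4, a subunit of the exchange factor for eIF2, differed by 0.96 ± 0.13 and the tryptophan synthetase Wars by 0.91 ± 0.13.

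Proteasome subunits moved by small steps. Of 35 tested 11 rose and none fell, and 10 were one-sided above with a median of 0.19 (0.29 without sham replicate 2). Psmc4, an ATPase of the cap, was at 22.5, 30.4 and 31.6 FPKM in sham, 43.3, 38.5 and 40.04 at 3 h, 45.01, 50.02 and 40.6 at 6 h and 37.7, 37.9 and 37.98 at 12 h. With library totals 2 were one-sided, 2 rose, 2 fell and the median was 0.01, and the count that rose was 6 without sham replicate 3 and 7 without 3 h replicate 3, 12 h replicate 2 or 12 h replicate 3. Of 57 unfolded protein response and ER chaperone genes 32 rose and 2 fell, yet 8 were one-sided above and 2 below, with a median of 0.44 and 0.09, 0.63 and 0.57 at the 3 times. One-sided counts above were 13 without sham replicate 1, 13 without sham replicate 2 and 4 with library totals, where the median was 0.255. Creld2, an ER stress-inducible chaperone, was at 8.27, 22.7 and 15.5 FPKM in sham, 30.7, 27.8 and 30.3 at 3 h, 75.1, 129 and 81.1 at 6 h and 66.9, 61.9 and 70.8 at 12 h. Xbp1 was at 59.6, 76.1 and 67.96 FPKM in sham, 169, 174 and 178 at 3 h, 224, 227 and 224 at 6 h and 84.5, 89.9 and 91.7 at 12 h, and Sec24d, a cargo subunit of COPII vesicles, differed by 1.12 ± 0.13. Of 28 polyamine and nucleotide synthesis genes 10 rose, 4 fell and 4 were one-sided above, among them the spermidine synthase Srm (1.04 ± 0.16), with a median of 0.21. Those that rose numbered 6 without sham replicate 2 or 3 and 5 with library totals, where 1 was one-sided above and the median was 0.04. That count above was 7 without sham replicate 1.

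The 10 largest falls with 5 FPKM or more in sham included steroid, lipid and quinone enzymes. Hsd3b5 (ENSMUSG00000038092, chr3:98618634-98630252), a male-biased liver hydroxysteroid dehydrogenase under growth hormone control, was at 219.7, 212 and 203 FPKM in sham, 34.6, 44.5 and 29.4 at 3 h, 2.58, 1.26 and 3.04 at 6 h and 13.6, 61.7 and 33.7 at 12 h. All resected livers were far below sham and the 6 h livers were lowest, with differences of -2.59, -6.56 and -2.55 at 3, 6 and 12 h and -3.90 ± 0.30 together. Its neighbour Hsd3b2 was at 24.9, 15.3 and 18.4 FPKM in sham, 4.47, 3.12 and 3.901 at 3 h, 0.418, 0.369 and 0.857 at 6 h and 2.71, 5.72 and 2.67 at 12 h, the same shape over time, though reads of these near copies may be shared. Coq8a (ENSMUSG00000026489, chr1:180165238-180199602), an atypical kinase needed for coenzyme Q synthesis, was at 102, 77.1 and 75.5 FPKM in sham, 49.3, 34.1 and 44.9 at 3 h, 6.45, 4.11 and 4.61 at 6 h and 2.62, 3.96 and 1.63 at 12 h. It fell step by step, and the difference of 12 h from 3 h was -3.93 ± 0.31 (SE, edgeR adjusted p = 4.74e-06). Arrdc3, an arrestin-domain adaptor, was at 46.96, 26.99 and 13.8 FPKM in sham, 2.598, 2.12 and 1.27 at 3 h, 2.74, 2.65 and 2.77 at 6 h and 7.62, 8.02 and 6.02 at 12 h, lowest at 3 h. Rnf125, a ubiquitin ligase, differed by -2.88 ± 0.29, and by -2.14 without sham replicate 1, which held 181 FPKM against 62.5 and 56.5 in the other sham livers. Osgin1, an oxidative stress-induced growth inhibitor, was at 92.03, 246 and 161 FPKM in sham, 46.96, 51.3 and 13.7 at 3 h, 17.8, 19.2 and 12.8 at 6 h and 62.3, 31.4 and 19.1 at 12 h. The cytochrome Cyp2u1 (-2.51 ± 0.15), the membrane protein Lrit1 (-2.27 ± 0.17), the lipid transporter Abca8a (-2.26 ± 0.16) and Srebf1, described next, completed the 10.

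No fatty acid synthesis gene was called higher with all 12 libraries, and 1 was without sham replicate 1. Of 22 tested fatty acid synthesis genes none rose and 12 fell, 4 of them one-sided, with a median of -0.75. One-sided counts were 7 without sham replicate 1 and 8 without 3 h replicate 1. Srebf1 (ENSMUSG00000020538, chr11:60199089-60222581), the transcription factor that drives lipogenic genes, was at 30.9, 40.9 and 41.9 FPKM in sham, 13.9, 11.5 and 9.58 at 3 h, 6.43, 5.98 and 4.09 at 6 h and 4.94, 7.38 and 4.9001 at 12 h. The highest resected value, from a 3 h liver, was far under the lowest sham value. Mlxipl, the carbohydrate-responsive factor ChREBP, was at 63.3, 94.9 and 95.6 FPKM in sham, 60.4, 52.4 and 37.1 at 3 h, 26.6, 27.8 and 22.9 at 6 h and 18.01, 17.4 and 11.1 at 12 h. It moved further from sham up to 12 h, with a difference of 12 h from 3 h of -1.66 ± 0.24 (SE, edgeR adjusted p = 0.000248). Gpam, the first enzyme of triglyceride assembly, differed by -1.21 ± 0.16. Of 27 cholesterol synthesis genes 1 rose (2 without sham replicate 1) and 19 fell, with a median of -0.85, and 4 were one-sided. Its medians were -0.93, -1.29 and -0.16 at 3, 6 and 12 h, nearest to sham at 12 h. Insig1, which retains the SREBP escort SCAP in the ER, was at 151, 123 and 104 FPKM in sham, 18.8, 19.04 and 14.7 at 3 h, 17.2, 22.98 and 20.8 at 6 h and 34.02, 71.99 and 65.4 at 12 h. Its 12 h livers were still below sham and higher than at 3 h, with a difference of 1.73 ± 0.25 (SE, edgeR adjusted p = 0.000257). Scap moved further from sham over time, with -0.67, -1.44 and -1.62 at 3, 6 and 12 h, and the sterol desaturase Sc5d was at 222, 129 and 115 FPKM in sham, 69.2, 48.4 and 62.8 at 3 h, 26.1, 28.3 and 29.3 at 6 h and 59.4, 61.7 and 58.4 at 12 h.

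Bile acid genes had the highest share of sustained falls of the pathway lists. Of 29 tested 2 rose (1 without sham replicate 2 or 3 or with library totals) and 17 fell, and 8 were one-sided below, with a median of -0.56. They were Nr0b2, Abcg8, Klb, Abcb11, Cyp8b1, Slco1a1, Abcc2 and Slc10a1. Nr0b2, the repressor SHP, was at 23.1, 39.99 and 27.1 FPKM in sham, 17.5, 14.9 and 14.1 at 3 h, 5.77, 12.2 and 8.52 at 6 h and 10.6, 9.68 and 5.94 at 12 h. Klb, the co-receptor for endocrine FGF hormones, was at 6.62, 5.68 and 4.38 FPKM in sham, 2.82, 2.53 and 3.29 at 3 h, 1.65, 1.28 and 0.907 at 6 h and 3.32, 2.56 and 2.91 at 12 h. Abcg8, part of the sterol exporter, differed by -1.46 ± 0.20, and the canalicular exporter Abcc2 by -0.91 ± 0.12. All 4 held below sham throughout, and Klb was lowest at 6 h. Of 32 cytochrome P450 genes 3 rose and 17 fell, 2 and 5 one-sided, with a median of -0.52. With library totals 9 were one-sided below, and without 3 h replicate 2, 8. Cyp1a2, which metabolises caffeine, was at 331, 461 and 369 FPKM in sham, 308, 269.6 and 289.8 at 3 h, 262, 201 and 243 at 6 h and 105, 131 and 104 at 12 h. It kept falling, with a difference of 12 h from 3 h of -1.32 ± 0.16 (SE, edgeR adjusted p = 8.73e-05). Cyp3a59 differed by -1.57 ± 0.24, a value uncertain for its near copies. One-sided above was Por, the reductase that supplies P450 enzymes with electrons, at 17.02, 34.4 and 34.2 FPKM in sham, 75.1, 87.8 and 102 at 3 h, 77.4, 105 and 79.4 at 6 h and 69.1, 53.9 and 46.3 at 12 h. Of 43 conjugation enzymes 2 rose and 18 fell, with a median of -0.40. Nnmt, a nicotinamide methyltransferase, was one of the rises, at 19.8, 35.3 and 28.97 FPKM in sham, 227, 233 and 319 at 3 h, 482, 503 and 496 at 6 h and 284, 296 and 345 at 12 h, and Sult1a1 the other (1.86 ± 0.15). Sult5a1 (-1.48 ± 0.22) was among 3 one-sided below, beside 7.27% of all tested genes. That count was 5 and 7 without sham replicates 2 and 3, 7 without 3 h replicate 3 and 11 with library totals.

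Of all tested genes 14.3% rose and 17.9% fell, and 6.87% and 7.27% were one-sided above and below. Among 27 growth hormone, STAT5 and IGF genes 3 rose and 10 fell, 1 and 5 of them one-sided. The list's median was -0.04, and 0.11 without sham replicate 1, 0.03 without 6 h replicate 2 and 0.06 with no filter on FPKM, so the list as a whole had no settled direction. Those one-sided above numbered 2 without sham replicate 1, and 1 rose without sham replicate 2 or 3. Stat5b, the transcription factor that growth hormone activates, was at 17.3, 12.6 and 13.7 FPKM in sham, 10.5, 9.98 and 8.66 at 3 h, 6.29, 6.25 and 6.49 at 6 h and 5.23, 3.895 and 4.28 at 12 h. It fell in steps, with a difference of 12 h from 3 h of -1.09 ± 0.16 (SE, edgeR adjusted p = 0.000243). Keg1, a glycine N-acyltransferase-like enzyme, was at 46.2, 35.4 and 28.5 FPKM in sham, 19.1, 20.2 and 12.6 at 3 h, 5.196, 2.77 and 4.15 at 6 h and 4.79, 14.96 and 10.1 at 12 h. Of 22 clock genes 2 rose and 8 fell, and Nr1d1, the repressor REV-ERB alpha, was the one sustained fall (of 2 without sham replicate 3), at 30.01, 33.9 and 23.3 FPKM in sham, 5.49, 1.22 and 7.87 at 3 h, 16.1, 22.8 and 13.7 at 6 h and 10.5, 5.64 and 7.04 at 12 h. Its 6 h livers came nearest to sham. Of the clock genes 1 rose without sham replicate 1 or 2, 3 h replicate 1 or 3, 6 h replicate 1 or 3, 12 h replicate 2 or 3, or with library totals. The hour of the sham livers is not given, so time of day and resection cannot be told apart for these genes or for any other gene here. Differences between 3, 6 and 12 h may also hold time of day, which was not tested. Of 26 NRF2 and oxidative stress genes 5 rose and 8 fell, 3 and 4 one-sided, with a median of -0.20. Counts above were 5 without sham replicate 1 or 2, and 7 were below without 3 h replicate 3. The median was -0.30, -0.11 and -0.06 without sham replicates 1, 2 and 3 and -0.38 with library totals. Gclc, the rate-limiting subunit of glutathione synthesis, was at 120.1, 84.1 and 86.4 FPKM in sham, 47.7, 57.5 and 51.2 at 3 h, 25.9, 30.97 and 43.2 at 6 h and 38.01, 35.5 and 33.98 at 12 h. Nfe2l2, NRF2 itself, was one-sided below too. Of 20 WNT targets and pericentral genes 3 rose and 9 fell, 1 and 2 one-sided, and 6 were one-sided below without sham replicate 1 and 4 with library totals. Above, 2 were one-sided without sham replicate 2, sham replicate 3 or 3 h replicate 1. Gulo, the last enzyme of vitamin C synthesis, differed by -0.68 ± 0.13. By FPKM the largest losses were in Car3 (-1.31 ± 0.18), a cytosolic carbonic anhydrase, Inmt (-1.59 ± 0.13), an indole methyltransferase, the carboxylesterase Ces3a (-0.69 ± 0.10), the protease inhibitor Mug1 (-0.70 ± 0.15) and the steroid reductase Akr1c6 (-0.99 ± 0.13). Car3 was at 2119.6, 1206 and 1123 FPKM in sham, 979, 807 and 1084 at 3 h, 788, 815 and 971 at 6 h and 217, 329.9 and 280.4 at 12 h, and 3 h replicate 3 came close to sham.

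Fat use and amino acid genes went both ways, beside 14.3% of all tested genes that rose, 17.9% that fell, 6.87% one-sided above and 7.27% below. Of 36 fatty acid oxidation and PPAR alpha targets 12 rose and 3 fell, and 6 were one-sided above, with a median of 0.51. Those counts were 10 one-sided without sham replicate 1 or 3 h replicate 1, and 3 with library totals, where 7 rose and the median was 0.34. Without sham replicate 1, 2 were one-sided below, and 1 fell without sham replicate 2, sham replicate 3 or 12 h replicate 3. Cyp4a31, a fatty acid hydroxylase, differed by 2.43 ± 0.41 and the uncoupling protein Ucp2 by 1.18 ± 0.23. Of 24 lipid droplet and uptake genes 8 rose and 2 fell, with a median of 0.30 (0.14 with library totals, where 5 fell, and 0.04 with no FPKM filter). Another 3 were one-sided below, and 6 fell, without sham replicate 1. The 3 one-sided above were the droplet proteins Cidec (2.69 ± 0.55) and Plin2 (2.03 ± 0.37) and the fatty acid carrier Fabp4 (2.11 ± 0.33). Plin2 was at 65.3, 135 and 131 FPKM in sham, 263, 758 and 377 at 3 h, 1049.7, 936 and 528 at 6 h and 342, 191 and 210.4 at 12 h, with wide spread among resected livers. Of 54 urea cycle and amino acid genes 13 rose and 15 fell, 7 and 3 one-sided, with a median of -0.13. Below were 6 without sham replicate 1 and 11 with library totals, where 25 fell and the median was -0.29. Mat1a, the liver's S-adenosylmethionine synthetase, was at 536, 446 and 469.9 FPKM in sham, 1464, 1354 and 1843 at 3 h, 2872, 2899 and 2564 at 6 h and 2568, 1820.2 and 2840.2 at 12 h. Aass, which degrades lysine, differed by 1.89 ± 0.23, and the serine dehydratase-like Sdsl by 1.74 ± 0.22. Of 30 gluconeogenesis, glycogen and insulin genes 9 rose and 10 fell, 5 and 2 one-sided, with a median of -0.06 (0.03 without sham replicate 1 and 6 h replicate 3). Below were 6 without sham replicate 1 and 4 without 3 h replicate 1. With library totals 3 were above and 4 below. Pfkfb3 (3.25 ± 0.41) and Pfkfb1 (0.77 ± 0.15) encode enzymes that set the level of a sugar phosphate activating glycolysis. Pck1, the entry enzyme of gluconeogenesis, was at 180.5, 488 and 589 FPKM in sham, 796, 705 and 768 at 3 h, 963, 778 and 749 at 6 h and 772, 689.99 and 817 at 12 h. Sham replicate 1 was the lowest of its group, and with library totals the gene was not called (0.68) and no longer one-sided.

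The next lists are read beside all tested genes, of which 14.3% rose, 17.9% fell, 6.87% were one-sided above and 7.27% below. A list near those shares is not read as a response of its own. Cytoskeleton genes were high in many resected livers. Of 39 tested 16 rose and 2 fell, 10 and 1 one-sided, with a median of 0.47 (0.30 with library totals). Without sham replicate 2 none fell, and without 3 h replicate 1, 2 were one-sided below. Actg1, a cytoplasmic actin, was at 15.1, 33.98 and 26.5 FPKM in sham, 162, 263 and 91.1 at 3 h, 346, 231 and 194 at 6 h and 49.3, 48.6 and 46.2 at 12 h, with 12 h livers nearest to sham. Tubb6, a beta tubulin, differed by 1.96 ± 0.17 and Krt18, the keratin of hepatocytes, by 1.46 ± 0.17. Of 23 heat shock genes 7 rose and 1 fell (6 without sham replicate 1, 2 without 6 h replicate 3, none without sham replicate 2 and 3 with library totals), and 4 were one-sided above (7 without sham replicate 1, 2 with library totals), with a median of 0.20. That median was 0.08 without sham replicate 1 and 0.03 with library totals. Fkbp5, a co-chaperone of the glucocorticoid receptor, was at 0.721, 1.64 and 1.41 FPKM in sham, 16.7, 17.7 and 30.8 at 3 h, 16.6, 15.8 and 24.1 at 6 h and 6.73, 4.51 and 5.94 at 12 h. Hspb8 differed by 1.595 ± 0.17, and Hsp90aa1 by 0.81 ± 0.19. Of 26 coagulation and fibrinolysis genes 8 rose and 8 fell, and 5 were one-sided each way (8 above without sham replicate 1, and 5 rose without sham replicate 2), with a median of -0.09, which was 0.004 with no FPKM filter. Thbd, the thrombomodulin that turns thrombin to an anticoagulant, was at 0.553, 0.592 and 0.7403 FPKM in sham, 8.27, 11.1 and 9.28 at 3 h, 7.51, 4.58 and 8.25 at 6 h and 5.78, 5.501 and 6.06 at 12 h. Klkb1, plasma prekallikrein, went down at 50.2, 41.9 and 43.5 FPKM in sham, 22.03, 22.6 and 31.9 at 3 h, 12.04, 11.2 and 9.06 at 6 h and 10.6, 13.2 and 10.2 at 12 h. Serpina10, an inhibitor of factor Xa, differed by 2.10 ± 0.14. Of 30 complement genes 6 rose and 3 fell, 3 and 2 one-sided, and without sham replicate 1, 9 fell, 6 were one-sided above and 4 below. Without sham replicate 2, 3 rose, and with library totals 12 fell. The central component C3 differed by 0.87 ± 0.13, the lectin Mbl1 by 0.64 ± 0.11 and the complement inhibitor Cd59a by -0.64 ± 0.13. Of 29 apolipoproteins and negative acute phase proteins 5 rose and 6 fell, 2 and 1 one-sided. Without sham replicate 1, 12 fell and 2 were one-sided below, without 3 h replicate 3, 2 were below, with library totals 11 fell and 3 were below, without sham replicate 2, 3 rose, and without 3 h replicate 1, 4 were one-sided above. Apoa5, a regulator of plasma triglyceride, was at 130.3, 269.98 and 347 FPKM in sham, 571, 698 and 625 at 3 h, 774, 754 and 499 at 6 h and 375, 509 and 428 at 12 h. Serpina7 (1.71 ± 0.31) and Serpina6 (-1.40 ± 0.18) encode carriers of thyroxine and of glucocorticoids. Of 35 iron, haem, zinc and copper genes 10 rose and 9 fell, 8 and 4 one-sided (9 below without sham replicate 1, 5 above with library totals), and the ferrireductase Steap4 was at 29.2, 23.3 and 25.2 FPKM in sham, 519, 724 and 663 at 3 h, 638, 711 and 1041 at 6 h and 88.9, 94.2 and 132 at 12 h. Of 32 growth factors and receptors 7 rose and 6 fell, 5 and 2 one-sided (9 and 4 without sham replicate 1). They included Fgf1 (0.80 ± 0.11), and the receptors Erbb3 (-1.09 ± 0.13) and Fgfr3 (-0.90 ± 0.16) below. Of 20 ATF4 targets and amino acid transporters 4 rose, 3 fell and none was one-sided above, while Slc38a4 (-0.85 ± 0.13) and Trib3 were below. Without sham replicate 1, 4 were below, and 1 was above without sham replicate 3, 3 h replicate 3, 12 h replicate 1 or 12 h replicate 3. Of 19 p53 targets and CDK inhibitors 2 rose and 6 fell, with Btg3 above (2 above without sham replicate 3) and Bbc3 and Sesn3 below (4 below with library totals). Of 34 interferon-stimulated genes 1 rose and 4 fell, and 3, among them the immunoproteasome subunit Psmb9 (-1.001 ± 0.18), were one-sided below. Those that fell numbered 2 without sham replicate 2, 7 without 6 h replicate 1 and 9 with library totals, and 2 rose without 12 h replicate 3.

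**Figure D4:**
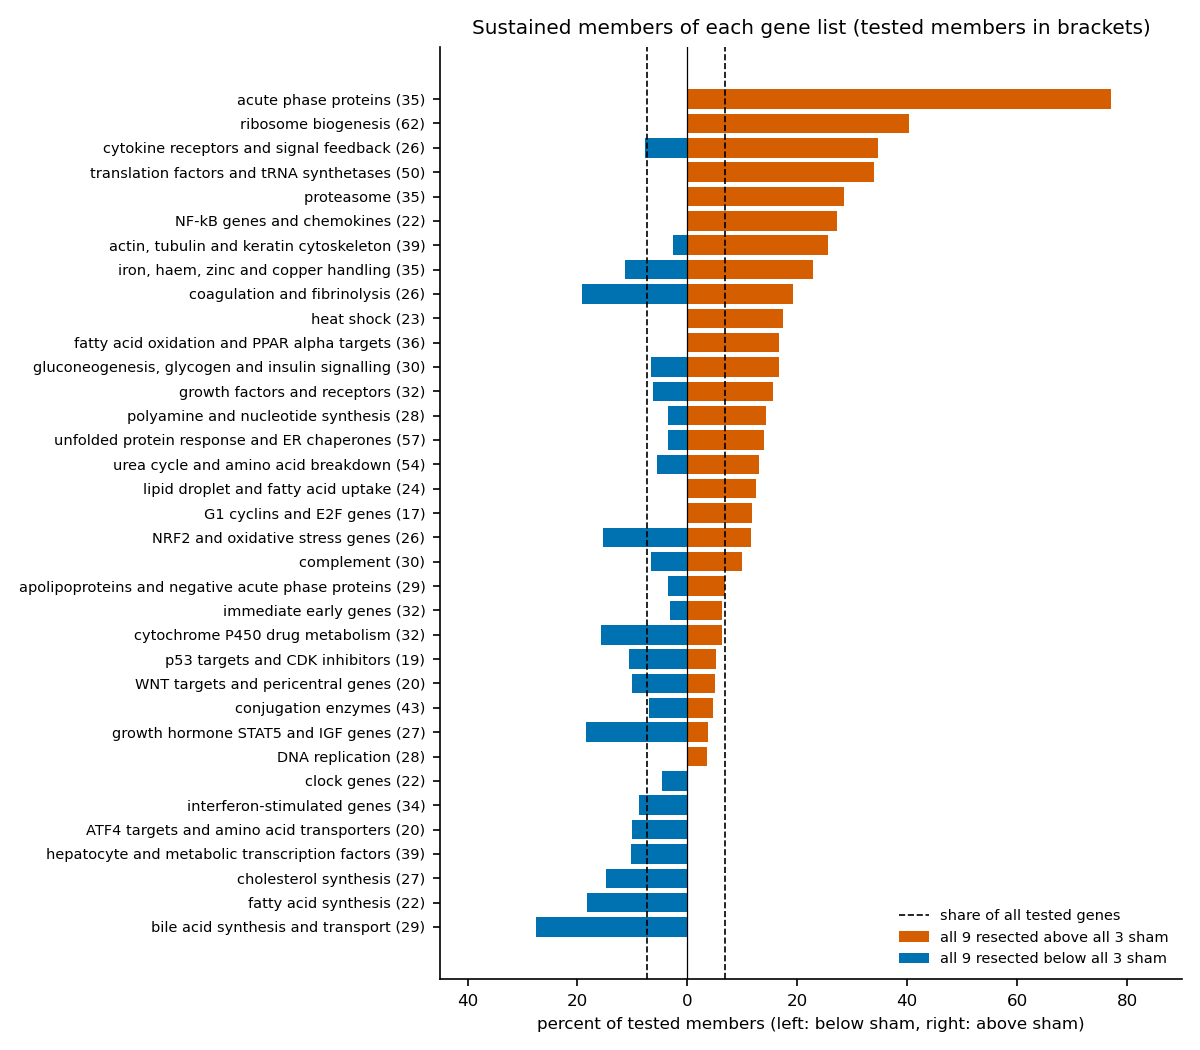
Percent of the tested members of each gene list (horizontal axis) whose 9 resected values all lie above sham (right) or below it (left), with the number tested in brackets. Dashed lines mark the shares of all tested genes, 6.87% above and 7.27% below. Acute phase proteins have 27 of 35 members above, and bile acid genes 8 of 29 below.

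Members differed in how they held their level. The 5 steadiest rises of 2-fold or more were Ccl6, Tspan4 (1.47 ± 0.18), Gimap9 (1.36 ± 0.17), Pawr (1.25 ± 0.17) and Srgn (1.05 ± 0.23). Tspan4, a tetraspanin of migrating cells, was at 6.86, 12.6 and 12.2 FPKM in sham, 25.5, 27.7 and 30.3 at 3 h, 26.03, 37.2 and 28.7 at 6 h and 31.000, 32.5 and 30.8 at 12 h. The steadiest falls were Zfyve1 (-1.06 ± 0.11), Irf5 (-1.27 ± 0.18), Atg101 (-1.31 ± 0.16), Grb7 (-1.33 ± 0.14) and Sphk2 (-1.62 ± 0.17). Grb7, an adaptor of growth factor receptors, was at 31.4, 33.2 and 31.1 FPKM in sham, 14.1, 12.9 and 10.3 at 3 h, 10.8, 14.8 and 11.6 at 6 h and 16.8, 13.5 and 11.5 at 12 h. Atg101, a subunit of the kinase complex that starts autophagy, was at 19.9, 24.7 and 23.2 FPKM in sham, 11.7, 9.53 and 8.98 at 3 h, 10.03, 10.8 and 7.29 at 6 h and 9.28, 10.05 and 6.14 at 12 h. None of these 10 was called between times, and they were picked for a small range. Between 3 h and 12 h the rises that moved farthest from sham were Ly6d, Orm2, Dnajc12 and Tgm1. Ly6d, a GPI-anchored surface protein, was at 0, 0.867 and 0.349 FPKM in sham, 3.98, 6.99 and 2.43 at 3 h, 38.3, 15.8 and 5.05 at 6 h and 45.7, 50.3 and 30.3 at 12 h. At 6 h replicate 3 was near the 3 h level. Its log2 difference was 5.16 ± 0.77, and 6.29 without sham replicate 2. Tgm1, a transglutaminase, went to 0.77, 1.77 and 2.78 at 3, 6 and 12 h, and Dnajc12, a co-chaperone of aromatic amino acid hydroxylases, to 0.995, 2.29 and 3.23. Falls that moved away were Coq8a, Abca8a, Inmt and Ddc, the last an aromatic amino acid decarboxylase with -0.67, -1.80 and -2.82. Moving back were Mt2, Steap4, Gadd45g and Tacc2 among rises, and Arrdc3, Fbxo21, Insig1 and Zfp467 among falls. Tacc2, a centrosomal coiled-coil protein, was at 1.07, 1.58 and 1.29 FPKM in sham, 15.6, 23.2 and 26.5 at 3 h, 18.2, 21.97 and 18.01 at 6 h and 1.72, 2.02 and 2.43 at 12 h. Fbxo21, a ubiquitin ligase subunit, was at 18.8, 26.6 and 21.3 FPKM in sham, 2.58, 2.72 and 3.97 at 3 h, 3.83, 4.99 and 3.05 at 6 h and 10.8, 8.77 and 11.4 at 12 h.

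**Figure D5:**
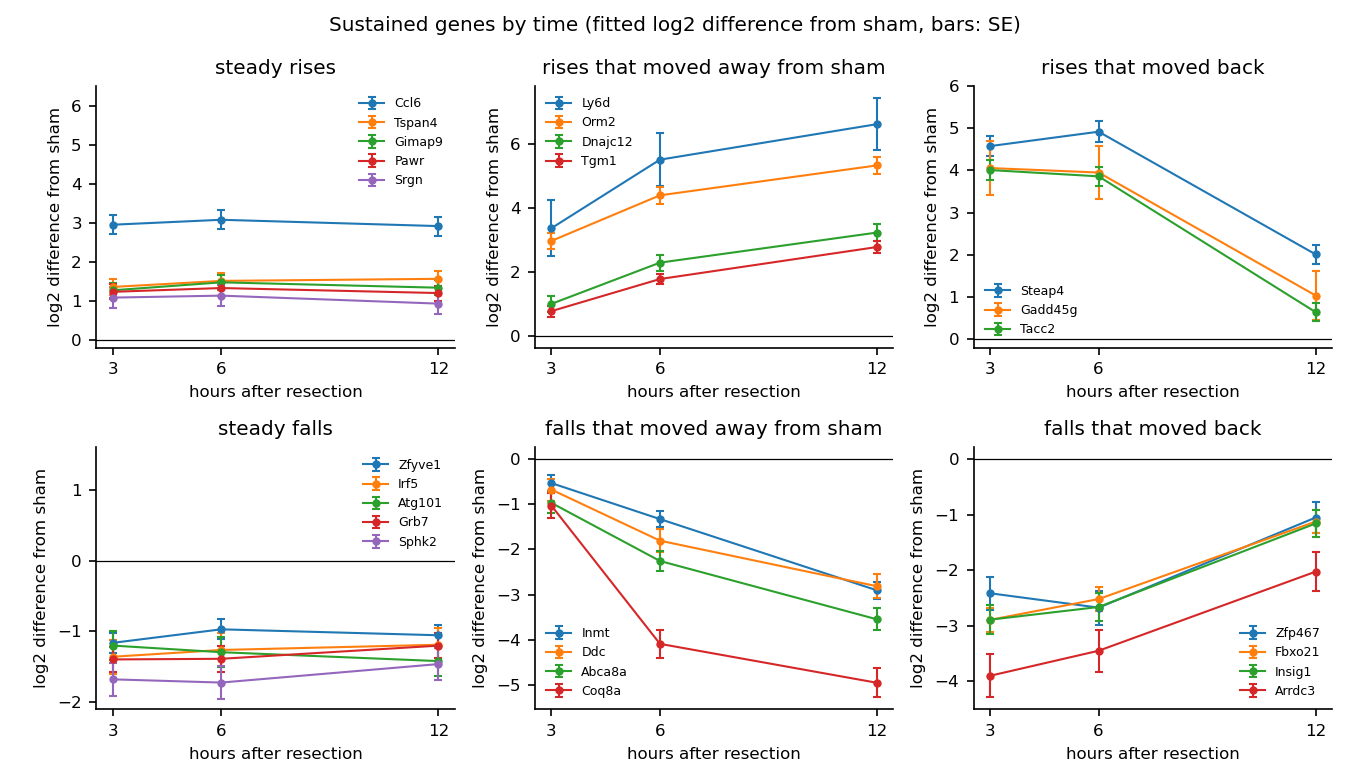
Fitted log2 difference from sham (vertical axes, each with its own range) at 3, 6 and 12 h (horizontal axes) for the steadiest sustained genes and for those that moved away from sham or back to it. Points are fits over 3 libraries a group with SE bars, and all use the same 3 sham livers. Mt2 is left out because sham held 3 counts. Coq8a goes from -1.03 to -4.96 and Ccl6 from 2.95 to 2.91.

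Membership is a threshold. Just inside it among 2-fold rises were Pgm3, at 2.11, 2.89 and 2.21 FPKM in sham, 2.94, 3.71 and 3.23 at 3 h, 6.28, 7.81 and 8.14 at 6 h and 6.58, 8.01 and 7.71 at 12 h, and Wdr45b, at 4.85, 4.09 and 5.84 FPKM in sham, 13.4, 12.3 and 16.99 at 3 h, 14.7, 13.5 and 13.4 at 6 h and 5.88, 6.49 and 7.14 at 12 h. Just outside were Arfip2, at 2.09, 2.16 and 3.098 FPKM in sham, 5.22, 4.96 and 5.99 at 3 h, 8.24, 9.51 and 13.7 at 6 h and 3.26, 3.08 and 3.78 at 12 h, and Ang, at 74.9, 129.5 and 136 FPKM in sham, 142, 138 and 174 at 3 h, 289, 298 and 241 at 6 h and 422, 355 and 449 at 12 h. Rilp and Tlcd2 lay just inside the falls and Slc29a1 and Hsd17b6 just outside. Their log2 differences were -1.24 ± 0.18, -1.26 ± 0.16, -1.05 ± 0.13 and -1.29 ± 0.19. A gap of 0.5 log2 or more between the nearest resected and sham livers left 203 rises and 161 falls, and a gap of 1 or more left 78 and 31.

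Some members lay side by side in the genome. Among tested genes in chromosome order, 101 neighbouring pairs were both rises and 108 both falls, where 6.87% and 7.27% of genes were members. The share expected of unrelated positions was not computed, so these counts are not read as clustering. Runs of rises included Fgg, Fga, Fgb and Plrg1 (chr3:83007724-83072355), Serpina3i, Serpina3k, Serpina3m and Serpina3n (chr12:104263122-104414329), and Orm1, Orm3 and Orm2 with a predicted gene (chr4:63344560-63365878). Hsd3b5, Hsd3b2 and Hsd3b3 formed a run of falls (chr3:98618634-98763127), as did H2-Q4, H2-Q5 and H2-Q6 (chr17:35379617-35430055). These families hold near copies whose reads may be shared, so neighbours are not independent, and positions are on GRCm38.

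Markers of other cell types moved too, and their part in these results was not tested. Of 16 neutrophil markers 4 were tested and 3 rose (7 with no FPKM filter). For 3 of the 4 tested, all sham values were under 1 FPKM. Those 3 passed the filter through the resected livers alone, so the count that rose is a description only. The summed level of all 16 lay between 1.97 and 2.65 FPKM in sham, and between 14.5 and 16.0, 10.5 and 21.6, and 7.23 and 9.25 at 3, 6 and 12 h, and Mpo was at 0 in all 12 libraries. S100a9, a calcium-binding protein of neutrophils, was at 0.564, 1.03 and 0.498 FPKM in sham, 6.26, 8.46 and 6.67 at 3 h, 5.25, 4.35 and 10.3 at 6 h and 3.42, 4.09 and 5.15 at 12 h. It and S100a8 were the one-sided members. Of 14 tested Kupffer cell and macrophage markers 2 rose, 3 fell (1 without sham replicate 2, 5 with library totals) and none was one-sided, and the sum lay between 141 and 190 FPKM in sham, and between 192 and 226, 129 and 157, and 94.7 and 120 at 3, 6 and 12 h. Marco, a macrophage scavenger receptor, differed by 1.91 ± 0.36, and by 2.56 without sham replicate 2. It was named for the largest difference in the list, whose median was -0.18, with 0.33, -0.23 and -0.60 at 3, 6 and 12 h. The called members were Clec4f, Csf1r, Cd163, Marco and Adgre1. Of 19 sinusoidal endothelial markers 2 rose (1 without sham replicate 2 or with library totals) and 3 fell, and Lyve1, a hyaluronan receptor (1.98 ± 0.33), was one-sided (1 of 2 without 12 h replicate 1). The sum was 69.7 to 86.1 FPKM in sham and 100 to 131, 71.4 to 87.8 and 54.6 to 67.6 at 3, 6 and 12 h. Beside Lyve1 the called members were Dnase1l3, Kdr, Pecam1 and Oit3. The list's median was 0.12, with 0.48, 0.02 and -0.36 at the 3 times. Of 17 stellate cell and fibroblast markers 3 rose, and Pdgfra (1.53 ± 0.21), the platelet-derived growth factor receptor, was one-sided. Their sum was 68.1 to 92.4 FPKM in sham and 112 to 149, 88.3 to 90.1 and 63.7 to 75.5 at the 3 times. One-sided were 4 without sham replicate 1, where 2 fell, and 2 without 6 h replicate 2. Of 5 cholangiocyte markers tested, 1 rose (2 without sham replicate 1, 3 h replicate 3 or 12 h replicate 1), 1 was one-sided above, Spp1 (0.599 ± 0.13), and 2 were below. Of 2 monocyte markers tested both rose (1 without sham replicate 2 or with library totals), and Fn1, fibronectin, which hepatocytes also make, differed by 1.25 ± 0.14. None of 16 T and NK cell markers reached the tested level, at a summed 1.26 to 4.63 FPKM. Of 2 B cell markers Ighm fell (-1.32 ± 0.31), and of 6 red blood cell markers none was called, with Bpgm at 0.41 ± 0.18. The defining hepatocyte genes were abundant in all libraries, but at 12 h their sum lay below every sham liver. That sum was 37500 to 43500 FPKM in sham and 42700 to 53200, 40000 to 43900 and 25900 to 27100 at 3, 6 and 12 h.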

How the data were processed

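Poly(A) RNA of whole liver was sequenced in 12 libraries of 4 groups. Per the submitters' processing notes, the authors' tools were featureCounts 1.5.0-p3, HISAT2 2.0.5, DESeq2 1.20.0, CASAVA 1.8 and fastp, and the build GRCm38 (mm10), without parameters or strand setting in the sources used here. The deposited table holds raw counts per gene for 54532 genes and, per the file headers, FPKM, which the authors derived by dividing by gene length and depth.

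From the counts, genes with 1 FPKM or more in at least 3 libraries (11451) were fitted with edgeR 4.0.16 (R 4.3.3, limma 3.58.1, TMM scaling, quasi-likelihood F-test, 4 group means, no block), contrasting the mean of the 3 resected groups with sham, called at a Benjamini-Hochberg adjusted p under 0.05. SEs are the log2 difference divided by the square root of F. A gene was sustained where all 9 resected TMM-scaled values lay on one side of all 3 sham values. On simulated counts for 11451 genes in this contrast, 9, 39, 43 and 50 of 50 genes changed 1.5-, 2-, 4- and 8-fold were called and 21, 40, 44 and 50 were one-sided, and of 11251 unchanged genes 5 were called and 113 one-sided. These counts were drawn around the sham means with each gene's own dispersion. They held no difference between times and no library unlike its partners. Named genes were those called, one-sided, protein-coding and at 5 FPKM or more in the higher arm: the 10 largest rises and falls, up to 3 per list (1 where none was one-sided), the 5 steadiest each way, the 4 that moved most each way between 3 and 12 h, the 5 largest FPKM gains and losses, 2 just inside and outside the rule, and 9 fixed genes. Transcription factors, the MYC family, Stat3, Fgb, Tk1, Alpk1 and Tifa were added after their values were seen. The lists hold 1293 symbols, 9 of them absent from the table. Some results are not reported here. The members and lists were chosen with earlier results of these data known. Replicate numbers did not pair libraries. Alternatives included median-ratio and total scaling, other filters, DESeq2 1.42.0, limma on log2(FPKM + 1) and log2(FPKM + 0.1), voom, a replicate block and leaving out each library. Strand was not given, so overlapping and antisense genes cannot be told apart.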

Additional observations from a re-analysis of the deposited data

Results flagged for a closer look

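Effects against the same sham livers that differ between times are given here, as found by the edgeR tests among 3, 6 and 12 h (Benjamini-Hochberg adjusted over 11451 genes). Groups of 3 libraries are too small for a test of single outlying libraries. Of 157 genes named with values, 27 were higher at 12 h than at 3 h, 50 were lower, and 36 differed among the times without a called difference between 12 h and 3 h.

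Sustained rises that were higher at 12 h, with the log2 difference of 12 h from 3 h, were Ly6d (3.26), Orm2 (2.36), Dnajc12 (2.23), Tgm1 (2.01), Ccnd1 (1.96), Creld2 (1.2), Pgm3 (1.2), Lcn2 (1.08) and Saa2 (0.938). Further down the same order stood Srm (0.827), Sult1a1 (0.794), Mat1a (0.664), Serpina3n (0.497), Fn1 (0.472), Fga (0.428) and Fgb (0.365). Sustained falls that had come back toward sham were Arrdc3 (1.88), Fbxo21 (1.77), Insig1 (1.73), Zfp467 (1.37), Cyp2u1 (0.82), Foxo3 (0.708) and Erbb3 (0.532). Named genes that were not sustained and were higher at 12 h were Uhrf1 (5.36), Marco (1.63), Ang (1.47) and Bpgm (0.895).

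Sustained rises that were lower at 12 h than at 3 h, with the same difference, were Mt2 (-4.5), Tacc2 (-3.37), Arid5a (-3.06), Gadd45g (-3.02), Steap4 (-2.57), Il1r1 (-2.3), Fkbp5 (-1.89), Actg1 (-1.82) and Cxcl1 (-1.74). Further down the same order stood Mt1 (-1.68), Tubb6 (-1.45), Hspb8 (-1.37), Cers6 (-1.12), Wdr45b (-1.09), Socs3 (-1.06), Sdsl (-1.01), Stat3 (-0.997) and Syt12 (-0.968). Then came Xbp1 (-0.941), Litaf (-0.915), Fgf1 (-0.765) and Thbd (-0.691). Sustained falls that went lower still were Coq8a (-3.93), Abca8a (-2.59), Inmt (-2.38), Ddc (-2.15), Rnf125 (-2.14), Serpina6 (-1.94), Car3 (-1.76), Mlxipl (-1.66) and Tlcd2 (-1.33). Further down the same order stood Cyp1a2 (-1.32), Lrit1 (-1.3), Klkb1 (-1.13), Stat5b (-1.09), Btg1 (-1), Srebf1 (-0.997), Scap (-0.946), Tk1 (-0.848) and Akr1c6 (-0.819). Then came Nr0b2 (-0.8), Ces3a (-0.581) and Gulo (-0.533). Genes that were not sustained and were lower at 12 h were Cdkn1a (-6.33), Igfbp1 (-4.84), Ighm (-1.95), Hsd17b6 (-1.28), Hnf4a (-1.25), Alb (-0.78) and Arfip2 (-0.645).

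Rises with a called difference among the times only, given by the range of their log2 differences from sham at the 3 times, were A2m (3.52), Tifa (2.1), Pfkfb3 (1.87), Alpk1 (1.82), Plin2 (1.74), Serpina7 (1.26), Sec24d (1.03), Fgg (0.994) and Nnmt (0.94). Further down the same order stood Wars (0.931), Aass (0.917), Gnl2 (0.901), Hp (0.895), Serpina10 (0.871), Hpx (0.79), Eif2b4 (0.727), Eif6 (0.622) and C3 (0.598). Then came Nop58 (0.579), Mlx (0.499), Max (0.474) and Serpina3k (0.428). Falls of this kind, by the same range, were Hsd3b5 (4.01), Hsd3b2 (2.8), Keg1 (2.09), Nr1d1 (1.87), Rilp (1.47), Gpam (1.32), Klb (1.21), Sc5d (1.12) and Abcg8 (1.02). Further down the same order stood Slc38a4 (0.852), Cd59a (0.663), Gclc (0.632) and Abcc2 (0.569). Outside the sustained set the same held for Slc29a1 (1.12).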

How the results depend on the processing

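With library totals in place of TMM, calls were 1055 higher and 3124 lower, 12 h exceeded 3 h for 3114 genes and fell short for 1356, and 492 rises and 1162 falls were sustained, of which 212 and 627 differed among times. Of the 787 rises 482 remained (61.2%) and of the 833 falls 803 (96.4%). Leaving out each library in turn gave 804 to 1544 rises and 837 to 1626 falls, of which 275 to 776 and 340 to 866 differed among times. The highest of each came without sham replicate 1. Without both sham replicate 1 and 6 h replicate 3 there were 1568 and 1661, of which 742 and 834 differed. Stricter rules gave fewer: a gap of 0.5 log2 left 203 rises and 161 falls, and a call at each of 3 times 476 and 456. A 2-arm model that ignored time called 764 higher and 799 lower, and a 2-fold minimum 516 and 660. The lowered counts under a gap, a call at each time and a 2-fold minimum follow from the stricter rules. The cause of the other shifts, that of the 2-arm model among them, was not tested.

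Replicate numbers showed no pairing: same-numbered libraries correlated at -0.255 to 0.173 in their deviations, with 4 of 18 pairs over 0.1, and 1 library correlated best with its own number. With a replicate block 1521 genes were higher and 1896 lower, 3869 differed among times, 12 h exceeded 3 h for 1849 and fell short for 1915, and 304 rises and 366 falls differed among times. Some directions turned. More genes were called higher than lower with limma on log2(FPKM + 1) (1827 and 1715) and log2(FPKM + 0.1) (1839 and 1695). The growth hormone list's median went from -0.04 to 0.11 without sham replicate 1, the iron list's from -0.11 to 0.01 without sham replicate 3 and the gluconeogenesis list's from -0.06 to 0.03 without both sham replicate 1 and 6 h replicate 3. The biological coefficient of variation common to all genes was 20.6%. In counts simulated with each gene's own dispersion, 9 of 50 changes of 1.5-fold were called.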
